A study of Sus scrofa with 7 samples.

Results

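The genes described here are the cyclins A, B, D and E, the cyclin-dependent kinases (CDKs) and their inhibitors, the E2F factors and pocket proteins, the proteins that license and fire replication origins, the CDC25 phosphatases, the polo-like and aurora kinases with their checkpoint partners, and the proliferation markers MKI67, PCNA and TOP2A. Rows were matched to these families by gene symbol, and 71 of the 29510 rows of the gene tables carried such a symbol. A cell passes from G1 into S phase when D and E cyclins with their CDKs phosphorylate RB1 and its relatives, which releases E2F factors to transcribe replication genes. Origins are licensed in G1, when the origin recognition complex, CDC6 and CDT1 load the MCM helicase, and geminin holds CDT1 back afterwards. Embryonic stem cells (ESCs) are known for a short G1 phase and for high activity of these kinases, and cyclins A and B with the CDC25 phosphatases, polo-like and aurora kinases drive the later steps into and through mitosis.

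RNA was sequenced from porcine cells of 3 kinds, with 1 library for each cell line. The 3 lines of porcine extra-embryonic endoderm (pXEN) cells were derived from inner cell masses of parthenogenetic blastocysts and grown on inactivated mouse embryonic fibroblasts in LCDM medium, which holds human LIF, CHIR99021, (S)-(+)-dimethindene maleate, minocycline hydrochloride and Y27632. The 2 lines of naïve-like ESCs, also derived from inner cell masses, grew on mouse embryonic fibroblasts in a medium with FGF, human LIF, PD0325901 (a MEK inhibitor), CHIR99021 (a GSK3 inhibitor), SB431542 (a TGFβ receptor inhibitor) and doxycycline. The 2 lines of primed ESCs, labelled as converted from naïve-like ESCs, grew on STO feeder cells with activin A, bFGF, EGF and human LIF. Passages were 26, 26 and 23 for pXEN lines 1, 2 and 3, 21 and 22 for the naïve-like lines and 20 for each primed line, so cell type, medium and passage cannot be told apart in any comparison, nor can feeder type where primed ESCs enter. Nothing used here says that the lines of a kind came from separate animals, and the p values measure the spread between these lines.

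Between 10408164 and 12995720 reads were counted on genes in each library, and 3 counts correspond to 0.231 to 0.288 CPM (counts scaled to the library total), a floor that covers counting error only. Of 9 XEN markers, the summed level was 8273 to 9298 CPM in pXEN lines, 99.1 and 130 CPM in naïve-like lines and 964 and 977 CPM in primed lines, while SOX7 was at 0 to 3 counts in every library. Of 7 pluripotency markers, the sum was 8.80 to 17.4 CPM in pXEN cells and 357 to 608 CPM in the ESCs, although the POU5F1 row held 0 to 5 counts in all libraries. NANOG ran against that sum, with 177, 60 and 166 counts in pXEN lines, 0 and 2 in naïve-like lines and 21 and 22 in primed lines. The pXEN line 2 stood apart, with 493 CPM over 11 rows of fibroblast markers against 11.9 and 31.2 CPM in pXEN lines 1 and 3, and with 38 counts on chromosome Y genes against 1 and 3. The same list summed to 37.2 and 37.7 CPM in naïve-like ESCs and 195 and 243 CPM in primed ESCs. The part of these differences in the results was not tested, and results are given without pXEN line 2 where its absence ended or added a call or moved a called value by over 1.5 times. In bulk RNA, fewer cells of a type and less RNA per cell cannot be told apart.

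Differences were tested on counts with edgeR's quasi-likelihood test over 17447 genes, with Benjamini-Hochberg adjustment. Each adjusted p below is from that test unless another fit is named, genes under 0.05 were called, and a log2 fold change is given with its SE. A call said to hold in every alternative was made in the same direction in each of the 16 other fits that tested the gene. Those fits, among them DESeq2, limma on log2 FPKM and a block for the replicate number, are listed with the processing. Where fits that ended or added a call are named, further ones may have done so too. Levels are FPKM (fragments scaled by gene length and library size), given per line in the order of the line numbers or as the mean ± SD. Of the 71 genes, 70 were tested. The exception was PLK5, a polo-like kinase, which had 1 count in pXEN lines 1 and 3 each and 0 in the other libraries.

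Comparing pXEN with naïve-like cells, 15 of the 70 genes were higher in pXEN cells, 22 were lower and 33 were not called. That is 52.9% called, against 54.5% of all genes tested. The higher calls made up 21.4% of these genes against 28.3% of all genes, and the lower calls 31.4% against 26.2%. The median log2 fold change was −0.08. With upper-quartile scaling, which moved the median of all genes from 0.00 to −0.16, the split was 12 higher and 31 lower. Without pXEN line 2 it was 17 higher and 23 lower, and without naïve-like line 1 it was 9 and 18, or 38.6% called against 39.6% of all genes.

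Between pXEN cells and primed ESCs, 13 genes were higher in pXEN cells, 16 lower and 41 not called. The called share was 41.4% against 48.3% of all genes, with 18.6% against 23.9% higher and 22.9% against 24.4% lower. The median was 0.08, against −0.01 for all genes. Upper-quartile scaling gave 9 higher and 20 lower, and 16 and 16 were called without pXEN line 2. Without primed line 1 or 2, which leaves 1 primed line, 4 or 8 were higher and 6 or 7 lower, or 14.3% or 21.4% called against 31% or 30.2% of all genes.

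Between primed and naïve-like ESCs, 9 genes were higher in primed ESCs and 21 lower, or 42.9% called against 32.2% of all genes. The higher calls were 12.9% of these genes against 19% of all genes, and the lower calls were 30.0% against 13.3%. The median was −0.26 against 0.01 for all genes. Without pXEN line 2, which is in neither group but shares the filter, scaling and estimate of spread, 11 were higher and 25 lower, or 51.4% called against 43.8% of all genes. Without naïve-like line 1 or 2 there were 4 or 5 higher and 7 or 8 lower, and without primed line 1 or 2 there were 4 or 3 higher and 6 or 7 lower. These are 14.3% to 18.6% of the genes, against 16.2% to 20.2% of all genes in the same fits, so that the called share was above that of all genes only while both lines of each ESC type were kept. Together, the 71 genes took 0.420% to 0.501% of the counts of each pXEN library, 0.604% and 0.632% in naïve-like lines and 0.518% in each primed ESC line.

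The pXEN comparisons share the pXEN libraries, so a gene called in both is not called independently, and the values of each comparison are given side by side. The plot of fold changes shows all tested genes by role.

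**Figure D1:**
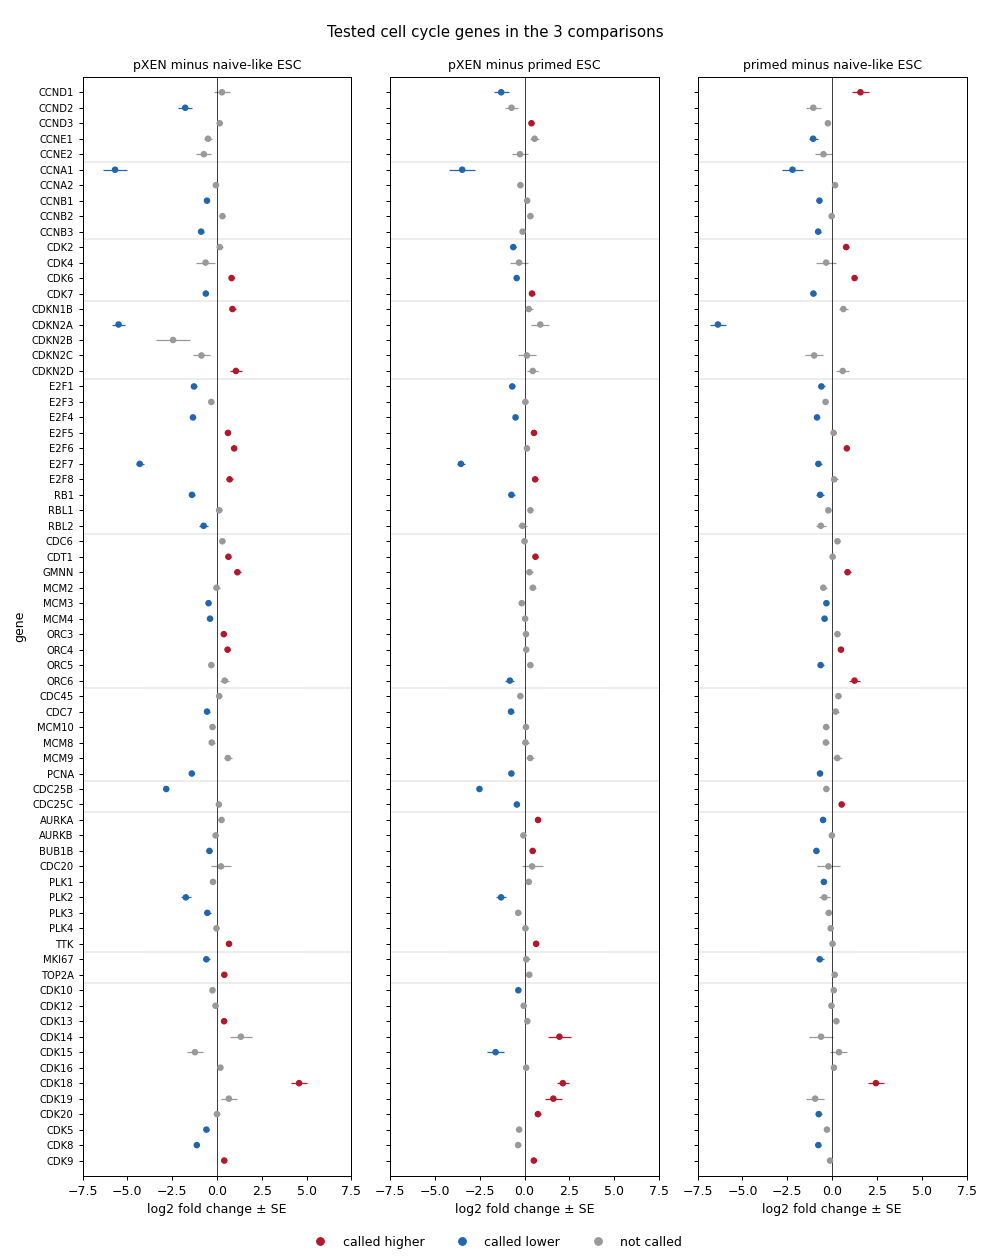
Log2 fold changes (x axis, points, with bars for the SE) of the tested cell cycle genes (y axis, ordered by role) in the 3 comparisons, from edgeR's quasi-likelihood test; red and blue points were called higher and lower at an adjusted p below 0.05 and grey points were not called. The points farthest from 0 are CDKN2A, at −6.37 between primed and naïve-like cells, and CCNA1, at −5.69 between pXEN and naïve-like cells, and CDKN2B is left out where the primed ESCs had no counts.

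The D cyclins activate CDK4 and CDK6 in G1. CCND1 was highest in the primed lines and CCND2 in the naïve-like lines. CCND3 overlapped between pXEN and naïve-like lines and was not called between them (0.15 ± 0.13, adjusted p = 0.351). CCND1 (chromosome 2, 2342270 to 2343202, in the build Sscrofa10.2 used throughout) was at 45, 14.7 and 27.5 FPKM in the pXEN lines, at 16.7 and 30.9 in the naïve-like lines and at 76.5 and 67.1 in the primed lines. All 5 other lines lay below the primed lines, and the pXEN and naïve-like lines overlapped. CCND1 was lower in pXEN than in primed cells (−1.30 ± 0.42, adjusted p = 0.0344) and higher in primed than in naïve-like ESCs (1.58 ± 0.48, adjusted p = 0.0383). Neither call held without primed line 1 (adjusted p = 0.149 and 0.151), primed line 2 (0.101 and 0.11) or pXEN line 3 (0.0859 and 0.0548), and the second was also lost without naïve-like line 1 (0.21) or 2 (0.0563).

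CCND2 (chromosome 5, 68314898 to 68331943) had the opposite order among the ESCs. It was at 17.1, 8.19 and 21.1 FPKM in pXEN lines, 38.8 and 66.6 in naïve-like lines and 27.4 and 24.1 in primed lines. Each naïve-like line was above every other line, and pXEN cells were lower than they were (−1.78 ± 0.38, adjusted p = 0.00494, and 0.0517 without naïve-like line 2). The differences between pXEN and primed cells (−0.73 ± 0.39, adjusted p = 0.158) and between the ESC types (−1.05 ± 0.42, adjusted p = 0.0922, and 0.0129 without pXEN line 2) were not called. The rows of CCND1 and CCND2 cover 390 and 456 bases only, which limits how these FPKM compare with other genes.

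CCND3 was the most even of the D cyclins, at 12.4 to 14.5 FPKM in pXEN lines, 11 and 12.7 in naïve-like lines and 9.99 and 10.4 in primed lines. Its higher level in pXEN than primed cells (0.38 ± 0.13, adjusted p = 0.0381) was lost in 9 of 16 alternatives, among them the fits without pXEN line 1 (0.0649), naïve-like line 1 (0.053) or either primed line (0.191 and 0.144). The row named CCND3 overlaps BYSL on the other strand, and the reference table gives its identifier the name BYSL, so the identity of its reads is uncertain. Of the summed D cyclin FPKM, CCND1 made up 66.6 ± 0.773% (SD, n = 2) in primed ESCs, 26.5 ± 2.86% (SD, n = 2) in naïve-like lines and 48.2 ± 10.7% (SD, n = 3) in pXEN cells. CCND2 made up 23.9 ± 0.271%, 59.1 ± 3.15% and 26.5 ± 7.07% in the same order. The sum itself was 57.8 ± 19 FPKM in pXEN lines, 88.4 ± 28.5 in naïve-like lines and 108 ± 8.77 in primed lines.

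The E cyclins activate CDK2 at the entry into S phase. CCNE1 was at 16.7, 12.6 and 21.5 FPKM in pXEN lines, 24.1 and 23.6 in naïve-like lines and 10.02 and 13.1 in primed lines. The naïve-like lines lay above all others, and primed ESCs were lower than naïve-like ESCs (−1.06 ± 0.26, adjusted p = 0.016), although not without naïve-like line 1 (0.0736) or 2 (0.0636) or primed line 1 (0.119). Between pXEN and primed cells the value was 0.56 ± 0.24 (adjusted p = 0.0878), and it was 0.73 without pXEN line 2 (adjusted p = 0.0101). Against naïve-like cells it was −0.50 ± 0.23 (adjusted p = 0.0973, and 0.0304 without pXEN line 3 or 0.0406 with upper-quartile scaling). CCNE2 was low, at 0.876 to 2.56 FPKM in pXEN cells and 1.72 to 2.92 in the ESCs, and was called in no comparison with all lines (adjusted p = 0.0396 against naïve-like cells without pXEN line 3). Its row overlaps INTS8, which had 752 to 1360 counts against 23 to 91 for CCNE2.

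**Figure D2:**
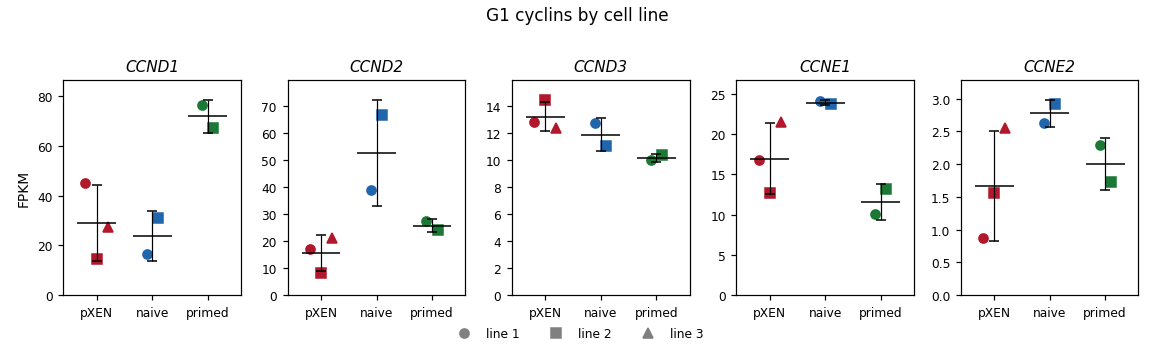
Levels of the G1 cyclins in FPKM (y axes, from 0) in each line of pXEN cells, naïve-like ESCs and primed ESCs; points are lines, horizontal bars means and whiskers SD. CCND1 was highest in the 2 primed lines, at 76.5 and 67.1 FPKM, and CCND2 in the 2 naïve-like lines, at 38.8 and 66.6 FPKM.

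Among the catalytic partners of these cyclins, CDK2 and CDK6 were highest in primed ESCs. CDK6 (chromosome 9, 79239885 to 79480047) was at 6.50, 5.39 and 6.68 FPKM in pXEN lines, 3.50 and 3.53 in naïve-like lines and 8.28 and 8.63 in primed lines. The 3 kinds of cells did not overlap. Compared with naïve-like ESCs, CDK6 was higher in pXEN cells (0.81 ± 0.12, adjusted p = 0.000882) and in primed ESCs (1.25 ± 0.13, adjusted p = 0.000394), and both calls held in every alternative. It was lower in pXEN than in primed cells (−0.44 ± 0.12, adjusted p = 0.0157), but not in limma on log2(FPKM + 0.1) (0.0701) or log2(FPKM + 1) (0.0627). That call was also lost without primed line 1 or 2, at log2 fold changes of −0.48 and −0.42. CDK2 was at 19.2, 18.5 and 24.4 FPKM in pXEN lines, 16.4 and 20.7 in naïve-like lines and 32.3 and 32.1 in primed lines. Primed ESCs exceeded pXEN cells (−0.63 ± 0.17 for pXEN minus primed, adjusted p = 0.0147) and naïve-like ESCs (0.78 ± 0.19, adjusted p = 0.0145). Without primed line 1 or 2 the former was not called (0.0781 and 0.0762), and the latter was not called without either of them (0.0754 and 0.0745) or naïve-like line 1 (0.102).

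The row named CDK4 held 7 to 21 counts per library (0.163 to 0.397 FPKM over a row of 4362 bases on an unplaced scaffold) and was not called. The row overlaps TSPAN31 on the other strand, and whether it covers the transcripts in use was not tested, so these counts are no measure of how much CDK4 the cells held. CDK1, the mitotic partner of cyclins A and B, is listed under the older symbol CDC2 and so was not among the 71. It was at 95.4, 123 and 97.8 FPKM in pXEN lines, 67.7 and 57.5 in naïve-like lines and 54.9 and 62.5 in primed lines. All pXEN lines were above all ESC lines, by 0.75 ± 0.15 against naïve-like (adjusted p = 0.00395) and 0.86 ± 0.15 against primed lines (adjusted p = 0.00252). CDK7, the kinase that activates other CDKs, was at 7.79 to 9.29 FPKM in pXEN lines, 12.9 and 13.0 in naïve-like lines and 5.70 and 6.98 in primed lines. It was lower than in naïve-like ESCs both in pXEN cells (−0.63 ± 0.14, adjusted p = 0.00662) and in primed ESCs (−1.04 ± 0.16, adjusted p = 0.00222). Its higher level in pXEN than primed cells (0.41 ± 0.15, adjusted p = 0.0491) was lost in 15 of 16 alternatives, including the omission of any of the 7 lines (0.0599 to 0.311).

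Of the CDK inhibitors, CDKN2A, whose products hold back CDK4 and CDK6 and stabilize p53, was far higher in naïve-like ESCs than in the other cells. It lies on chromosome 1 (223989851 to 223992651) and was at 3.02, 5.43 and 2.71 FPKM in pXEN lines, 173 and 167 in naïve-like lines and 0.943 and 3.09 in primed lines. The counts were 10, 21 and 10, then 706 and 655, then 4 and 14. CDKN2A was lower than in naïve-like ESCs in pXEN cells (−5.49 ± 0.36, adjusted p = 1.03e-05) and in primed ESCs (−6.37 ± 0.45, adjusted p = 5.68e-05), and these calls held in every alternative. Without primed line 1 or 2, the latter value was −5.77 or −7.45. Between pXEN and primed cells the value was 0.88 ± 0.50 (adjusted p = 0.182, and 1.96 with adjusted p = 0.0476 without primed line 2). The row covers 336 bases and does not tell the transcripts of this gene apart.

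CDKN2B, an inhibitor of the same kinases, lies 30930 bases from CDKN2A and was also at its highest in naïve-like ESCs. Its counts were 0, 14 and 5 in pXEN lines, 28 and 47 in naïve-like lines and 0 in both primed lines, or 0 to 2.70, 5.11 and 8.91, and 0 FPKM. Against the naïve-like lines it was at least 27.7-fold lower in primed ESCs (3 counts taken over the group, adjusted p = 0.0158), and this call was lost when any of the 4 ESC lines was left out (0.0504 to 0.084). The value was −2.45 ± 0.94 between pXEN and naïve-like cells (adjusted p = 0.0634), and without pXEN line 2 it was −3.69 (adjusted p = 0.00947). Against primed ESCs, the level of CDKN2B in pXEN cells was at least 5.14-fold higher by the same floor (2.09-fold without pXEN line 2). The main fit did not call it (adjusted p = 0.0591). It was called higher by DESeq2 (0.0158), without a low-count filter (0.0428) and without pXEN line 1 (0.0145).

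CDKN1B (p27, which binds CDK2 complexes) and CDKN2D (p19) ran the other way. CDKN1B was at 11.3, 15.2 and 13.1 FPKM in pXEN lines, 6.92 and 7.55 in naïve-like lines and 10.8 and 11.8 in primed lines, and was higher in pXEN than in naïve-like cells (0.86 ± 0.22, adjusted p = 0.0113, and 0.0729 without naïve-like line 1). CDKN2D was at 4.13, 8.08 and 6.79 FPKM in pXEN lines against 2.96 and 3.13 in naïve-like lines (1.05 ± 0.33, adjusted p = 0.026), and at 4.41 and 4.88 in primed lines. This call was lost without pXEN line 3 (0.0624) or naïve-like line 1 (0.122) or 2 (0.0944). With all lines, the main fit called neither gene between pXEN and primed cells or between the ESC types. Limma called CDKN1B higher in primed than in naïve-like cells on log2(FPKM + 0.1) (0.64, adjusted p = 0.0316) and log2(FPKM + 1) (0.58, adjusted p = 0.0333). The edgeR fit without pXEN line 2 made the same call (0.63, adjusted p = 0.0449). CDKN2C (p18) was at 0.413 to 0.658 FPKM in pXEN lines, 0.998 and 0.971 in naïve-like lines and 0.480 and 0.505 in primed lines and was not called.

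In the summed FPKM of these 5 inhibitors, CDKN2A took 90.3 ± 1.79% (SD, n = 2) in naïve-like lines, 14.7 ± 3.03% (SD, n = 3) in pXEN cells and 10.5 ± 6.76% (SD, n = 2) in primed ESCs. CDKN1B took 3.85 ± 0.265%, 53.8 ± 6.10% and 61.6 ± 4.76% in that order. CDKN1A is not part of this sum, so the shares do not describe all CDK inhibitors. CDKN1A (p21, a p53 target), found only through its identifier and so outside the 71, had 23, 15 and 47 counts in pXEN lines, 520 and 58 in naïve-like lines and 376 and 182 in primed lines. The 2 naïve-like lines thus differed widely, and all pXEN lines were below all ESC lines. As FPKM, CDKN1A reached 31.4 and 14.2 in the primed lines, above CDKN1B in each (10.8 and 11.8). The naïve-like lines stood at 45.2 and 5.24 FPKM of CDKN1A, above and below their CDKN1B levels of 6.92 and 7.55. All pXEN lines had less CDKN1A (2.46, 1.38 and 4.51 FPKM) than CDKN1B. CDKN1A was lower in pXEN than in naïve-like cells (−3.18 ± 0.85, adjusted p = 0.0134) and primed ESCs (−3.03 ± 0.85, adjusted p = 0.0193). Without naïve-like line 1 the first value was −0.93 (adjusted p = 0.307), without naïve-like line 2 it was −4.02 (0.00182), and the second was not called without primed line 1 (−2.35, 0.121) or pXEN line 1 (−2.95, 0.0592).

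**Figure D3:**
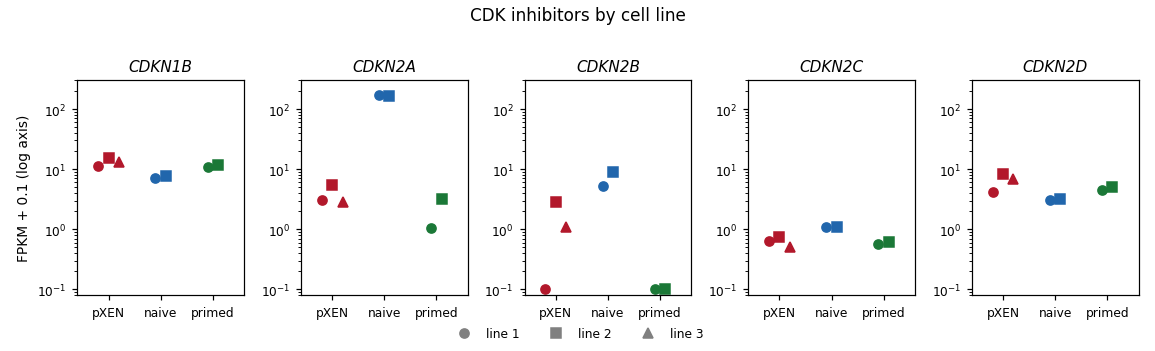
Levels of the CDK inhibitors as FPKM plus 0.1 (log y axes) in each line of pXEN cells, naïve-like ESCs and primed ESCs; each point is 1 line. CDKN2A was at 173 and 167 FPKM in the naïve-like lines and at or under 5.43 FPKM in every other line.

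Of the 10 pocket proteins and E2F factors, 3 were higher and 5 lower in pXEN than in naïve-like cells, and 2 were higher and 4 lower than in primed ESCs. That is 30% and 50% beside 28.3% and 26.2% of all genes, and 20% and 40% beside 23.9% and 24.4%. E2F7 and E2F8 are related repressors of E2F targets, and they moved apart. E2F7 (chromosome 5, 109254252 to 109290485) was at 0.970, 1.85 and 1.42 FPKM in pXEN lines, 28.5 and 27.9 in naïve-like lines and 16.9 and 16.6 in primed lines. It was lower in pXEN than in naïve-like cells (−4.31 ± 0.22, adjusted p = 3.47e-06) and primed ESCs (−3.55 ± 0.22, adjusted p = 1.25e-05), and both calls held in every alternative. Between the ESC types it was lower in primed cells (−0.76 ± 0.22, adjusted p = 0.029), but not when any of the 4 ESC lines was left out (0.106 to 0.158).

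E2F8 was at 10.5, 8.36 and 12.4 FPKM in pXEN lines, 6.23 and 6.50 in naïve-like lines and 7.52 and 6.40 in primed lines. Every pXEN line was above every ESC line, by 0.70 ± 0.19 against naïve-like (adjusted p = 0.0135) and 0.59 ± 0.19 against primed lines (adjusted p = 0.0313). The former call was lost without naïve-like line 1 (0.0831) or 2 (0.0601), and the latter in 11 of 16 alternatives, among them upper-quartile scaling (0.0624) and leaving out any line other than pXEN line 2 (0.0503 to 0.206). E2F7 made up 12.3 ± 5.11% (SD, n = 3) of the summed FPKM of E2F7 and E2F8 in pXEN lines, 81.6 ± 0.679% (SD, n = 2) in naïve-like lines and 70.7 ± 2.03% (SD, n = 2) in primed ESCs.

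E2F1, the activator released at the G1 to S transition, was at 17.5, 13.0 and 18.8 FPKM in pXEN lines, 37.5 and 42.4 in naïve-like lines and 27.2 and 26.1 in primed lines. The 3 kinds did not overlap, and pXEN cells were lower than naïve-like (−1.29 ± 0.16, adjusted p = 0.000315) and primed ESCs (−0.69 ± 0.16, adjusted p = 0.00894, and 0.0624 without primed line 1). E2F4, which acts mainly as a repressor with RBL1 and RBL2, had the same order, with 36.1, 33.3 and 37.0 FPKM, then 91.7 and 87.7, then 52.2 and 48.9. The pXEN cells were lower than naïve-like (−1.34 ± 0.10, adjusted p = 2.06e-05) and primed ESCs (−0.50 ± 0.10, adjusted p = 0.00449, and 0.0511 without primed line 1). Primed ESCs were below naïve-like ESCs in E2F4 (−0.84 ± 0.11, adjusted p = 0.00112) and in E2F1 (−0.60 ± 0.18, adjusted p = 0.0348). The latter was lost without pXEN line 1 (0.0512) or any of the 4 ESC lines (0.0805 to 0.173). E2F3, another activator, was at 10.4 to 13.0 FPKM in pXEN cells and 11.8 to 16.4 in ESCs and was not called. With upper-quartile scaling or without pXEN line 2 it was called lower in pXEN than in naïve-like cells (adjusted p = 0.0134 and 0.0368).

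E2F5 and E2F6, a pocket protein partner and a repressor that acts without pocket proteins, were higher in pXEN than in naïve-like cells. E2F5 was at 73.0, 61.5 and 58.6 FPKM in pXEN lines, 43.1 and 41.1 in naïve-like lines and 42.7 and 47.3 in primed lines. It was higher in pXEN than in naïve-like (0.61 ± 0.13, adjusted p = 0.00421) and primed ESCs (0.52 ± 0.13, adjusted p = 0.00963, and 0.0994 without primed line 1). Its row overlaps C8orf59 on the other strand, at 200 to 325 counts against 932 to 1397 for E2F5. E2F6 was at 23.8, 20.6 and 21.9 FPKM in pXEN lines and 19.1 and 21.3 in primed lines, which overlapped, and at 11 and 11.7 in naïve-like lines. Both pXEN cells (0.95 ± 0.12, adjusted p = 0.000298) and primed ESCs (0.82 ± 0.13, adjusted p = 0.00222) were above naïve-like ESCs, in every alternative.

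RB1, the founding pocket protein, was at 1.51, 1.87 and 2.02 FPKM in pXEN lines, 4.54 and 4.94 in naïve-like lines and 2.80 and 3.23 in primed lines. It was lower in pXEN than in naïve-like (−1.40 ± 0.19, adjusted p = 0.000482) and primed ESCs (−0.73 ± 0.19, adjusted p = 0.0144, and 0.109 without primed line 2). It was also lower in primed than in naïve-like ESCs (−0.67 ± 0.21, adjusted p = 0.0413), but not when any of the 4 ESC lines was left out (0.113 to 0.22). The row of RB1 spans LPAR6 on the other strand, which had 12 to 272 counts against 69 to 268 for RB1, and the median of the 335 genes tested on chromosome 11 was −0.16 against naïve-like and −0.24 against primed ESCs. The part of either in RB1 was not tested. RBL2 was at 5.12, 4.66 and 7.34 FPKM in pXEN lines, 9.67 and 9.44 in naïve-like lines and 5.79 and 6.69 in primed lines, and was lower in pXEN than in naïve-like cells (−0.75 ± 0.24, adjusted p = 0.0274). This call was lost without pXEN line 1 (0.0803) or naïve-like line 1 (0.102) or 2 (0.093). RBL1 was at 14 to 17.8 FPKM in pXEN lines, 15.0 and 15.1 in naïve-like lines and 12.8 and 13.5 in primed lines. It was not called, except against primed ESCs without pXEN line 2 (0.43, adjusted p = 0.00651).

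**Figure D4:**
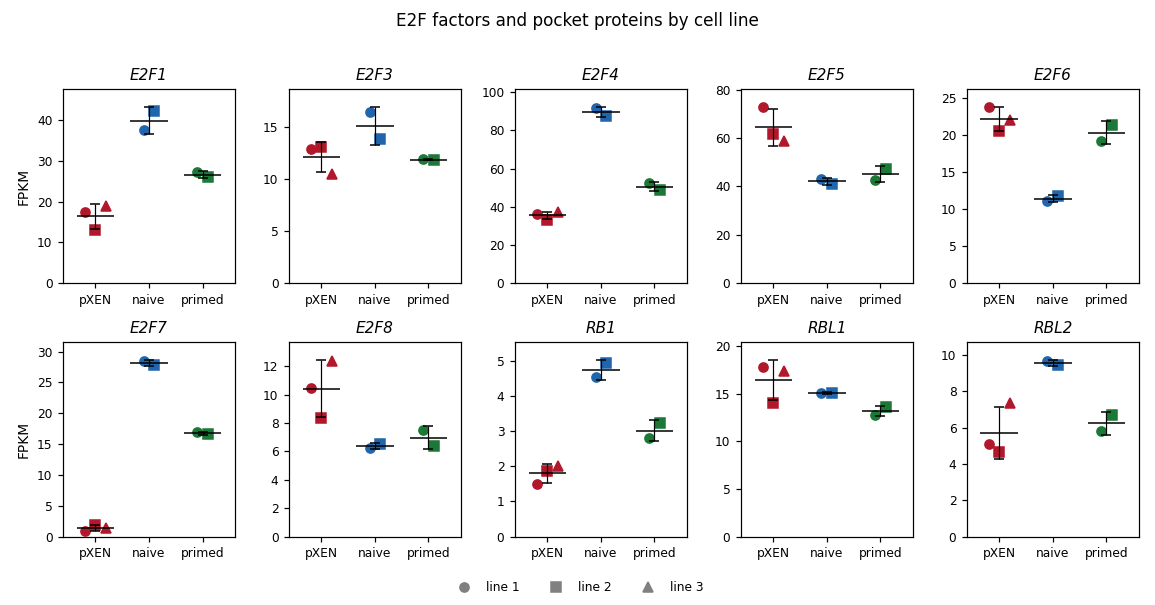
Levels of the E2F factors and pocket proteins in FPKM (y axes, from 0) in each line of pXEN cells, naïve-like ESCs and primed ESCs; points are lines, horizontal bars means and whiskers SD. E2F7 lay between 0.970 and 1.85 FPKM in the pXEN lines and at or above 16.6 FPKM in every ESC line, while E2F8 and E2F5 were highest in pXEN lines.

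Origin licensing genes were called in mixed directions, with 4 of 10 higher and 2 lower in pXEN than in naïve-like cells, 1 and 1 against primed lines, and 3 and 3 between the ESC types. The called shares were 60%, 20% and 60%, beside 54.5%, 48.3% and 32.2% of all genes. CDT1, the loader of the MCM helicase, was at 56.9, 43.2 and 54.0 FPKM in pXEN lines, 34.1 and 31.9 in naïve-like lines and 31.4 and 36.5 in primed lines. All pXEN lines were above all ESC lines, by 0.63 ± 0.14 against naïve-like (adjusted p = 0.00652) and 0.61 ± 0.14 against primed lines (adjusted p = 0.00925). The calls were lost without naïve-like line 2 (0.0539) and primed line 1 (0.098), respectively. GMNN, which encodes geminin, the inhibitor of CDT1, was at 46.5, 59.5 and 41.1 FPKM in pXEN lines, 24.7 and 19.8 in naïve-like lines and 39.2 and 42.5 in primed lines. It was higher than in naïve-like ESCs both in pXEN cells (1.13 ± 0.19, adjusted p = 0.00152) and in primed ESCs (0.86 ± 0.20, adjusted p = 0.0147). The latter was lost without naïve-like line 2 (0.0948) or primed line 1 (0.058) or 2 (0.0865), and pXEN and primed lines overlapped (0.27 ± 0.18, adjusted p = 0.256). The ratio of GMNN to CDT1 FPKM was 0.817, 1.38 and 0.760 in pXEN lines, 0.724 and 0.622 in naïve-like lines and 1.25 and 1.16 in primed lines, so pXEN line 2 lay apart from the other pXEN lines.

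The origin recognition complex marks the sites where the helicase is loaded. Its subunit ORC4 was at 26.3, 27.8 and 27.5 FPKM in pXEN lines, 18.2 and 17.9 in naïve-like lines and 25.2 and 26.1 in primed lines. It was higher than in naïve-like ESCs in pXEN cells (0.59 ± 0.11, adjusted p = 0.00264) and in primed ESCs (0.49 ± 0.12, adjusted p = 0.0158, lost when any of the 4 ESC lines was left out, at 0.0726 to 0.0993). ORC6 was at 6.40, 5.28 and 6.67 FPKM in pXEN lines, 4.82 and 4.22 in naïve-like lines and 9.81 and 11.9 in primed lines. The primed lines stood above all others, by 1.25 ± 0.29 against naïve-like ESCs (adjusted p = 0.0126), and pXEN cells were lower than primed ESCs (−0.82 ± 0.25, adjusted p = 0.0282). The former call was lost without naïve-like line 1 (0.0508) or 2 (0.068) or primed line 2 (0.0855), and the latter without pXEN line 1 (0.0607) or primed line 1 (0.0676) or 2 (0.175).

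ORC5 was at 13.5 to 15.1 FPKM in pXEN lines, 18.2 and 17.8 in naïve-like lines and 10.5 and 12.7 in primed lines, and was lower in primed than in naïve-like ESCs (−0.64 ± 0.17, adjusted p = 0.022). That call was lost when any of the 4 ESC lines was left out (0.0559 to 0.156). ORC3, another subunit of the complex, was higher in pXEN than in naïve-like cells (0.38 ± 0.12, adjusted p = 0.033), but not with upper-quartile scaling (0.195) or when any line other than pXEN line 2 was left out (0.0501 to 0.216). CDC6, the ATPase that works with CDT1, was at 13.3 to 15.7 FPKM in pXEN cells and 11.7 to 15.5 in ESCs and was not called.

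The MCM helicase subunits were picked out after their values were seen. MCM3 was at 53.3, 51.7 and 53.1 FPKM in pXEN lines, 71.9 and 74.0 in naïve-like lines and 57.7 and 60.5 in primed lines, without overlap between the kinds. It was lower in pXEN than in naïve-like cells in every alternative (−0.47 ± 0.09, adjusted p = 0.00224), and lower in primed than in naïve-like ESCs (−0.32 ± 0.10, adjusted p = 0.0371). MCM4 was at 77.4, 61.3 and 76.3, then 91.9 and 95.2, then 70.2 and 70.9 FPKM, and was lower than in naïve-like ESCs in pXEN cells (−0.39 ± 0.12, adjusted p = 0.0228) and primed ESCs (−0.42 ± 0.13, adjusted p = 0.0401). The MCM4 call in pXEN cells was lost without naïve-like line 1 (0.0685) or 2 (0.112). Between the ESC types, the calls of MCM3 and MCM4 were lost when any line other than pXEN line 2 was left out (0.0528 to 0.226 and 0.0501 to 0.186).

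MCM2 differed between pXEN lines, at 165, 103 and 159 FPKM, against 140 and 149 in naïve-like lines and 104 and 103 in primed lines. The main fit did not call it with all lines. DESeq2 on all lines called MCM2 higher in pXEN than in primed cells (0.46, adjusted p = 0.0464). The edgeR fit of only the 2 ESC types called it lower in primed cells (−0.49, adjusted p = 0.00254). Without pXEN line 2 it was higher in pXEN than in primed cells (0.65, adjusted p = 0.000138) and lower in primed than in naïve-like ESCs (−0.49, adjusted p = 0.00105). MCM2 lies on chromosome 13, where the median of 1129 tested genes was 0.46 above naïve-like ESCs and 0.40 above primed ESCs in pXEN cells. The same chromosome was shifted by 0.19, −0.37 and 0.19 in pXEN lines 1, 2 and 3 against the mean of the other lines of their kind, and the part of this in MCM2 was not tested. The ratio of MCM2 to MCM4 FPKM was 2.13, 1.68 and 2.09 in pXEN lines and 1.46 to 1.57 in the ESC lines. Among related rows named only by the reference table, ORC1, an ATPase subunit of the origin recognition complex, was at 13.2 to 16.1 FPKM in pXEN lines and 20.2 and 20.6 in naïve-like lines. The pXEN lines were lower (−0.46 ± 0.12, adjusted p = 0.0137), but not without naïve-like line 1 (0.0533) or 2 (0.0723) or with the replicate number as a block (0.0603). ORC2 and MCM5, matched in the same way, were not called, and no row was found for MCM6 or MCM7.

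At the fork and at origin firing, 2 of 6 genes were lower in pXEN cells than in each ESC type, or 33.3% beside 26.2% and 24.4% of all genes. PCNA, the sliding clamp of the replicative polymerases (chromosome 17, 15127107 to 15132926), was at 75.2, 72.2 and 72.8 FPKM in pXEN lines, 206 and 183 in naïve-like lines and 117 and 128 in primed lines. The 3 kinds were fully apart. The pXEN cells were lower than naïve-like (−1.41 ± 0.10, adjusted p = 1.38e-05) and primed ESCs (−0.74 ± 0.10, adjusted p = 0.000539), and primed were lower than naïve-like ESCs (−0.67 ± 0.11, adjusted p = 0.00266). These 3 calls held in every alternative.

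CDC7, the kinase that fires licensed origins, was at 13.9, 12 and 16.8 FPKM in pXEN lines, 17.9 and 23.7 in naïve-like lines and 24.3 and 24.0 in primed lines. All pXEN lines were below all ESC lines, by −0.56 ± 0.18 against naïve-like (adjusted p = 0.0291) and −0.76 ± 0.18 against primed lines (adjusted p = 0.00887). The former call was lost without pXEN line 1 (0.0742), naïve-like line 2 (0.228) or primed line 1 (0.054) or 2 (0.0531), and the latter without primed line 1 (0.0544) or 2 (0.0515). CDC45 and MCM10, which join or stabilize the active helicase, and the MCM8 and MCM9 pair, which acts in repair, were called in no comparison with all lines. Without pXEN line 2, MCM9 was higher in pXEN than in naïve-like cells (0.70, adjusted p = 0.0259) and CDC45 was higher in primed than in naïve-like cells (0.35, adjusted p = 0.0275). Their levels were 21.8 to 33.6 FPKM for CDC45, 15.8 to 21.4 for MCM10, 9.81 to 14.2 for MCM8 and 1.92 to 3.23 for MCM9. The MCM9 row overlaps ASF1A on the other strand, which had 274 to 565 counts against 78 to 120 for MCM9.

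The CDC25 phosphatases remove the inhibitory phosphates from CDKs. CDC25B (chromosome 17, 36244258 to 36254564) had the lowest adjusted p of the 70 genes in each pXEN comparison. It was at 7.55, 8.76 and 8.42 FPKM in pXEN lines, 57.8 and 59.4 in naïve-like lines and 47.3 and 47.7 in primed lines. The pXEN lines were thus far below all ESC lines, by −2.83 ± 0.11 against naïve-like (adjusted p = 1.01e-06) and −2.52 ± 0.10 against primed lines (adjusted p = 2.69e-06), in every alternative. Between the ESC types the value was −0.32 ± 0.11 (adjusted p = 0.062, and 0.0167 without pXEN line 2).

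CDC25C was at 15.1, 15.1 and 15.3 FPKM in pXEN lines, 13.5 and 14.7 in naïve-like lines and 20.5 and 20.7 in primed lines. It was lower in pXEN than in primed cells (−0.43 ± 0.11, adjusted p = 0.0145, lost without primed line 1 at 0.0785 or 2 at 0.0891). Among ESCs it was higher in the primed lines (0.53 ± 0.12, adjusted p = 0.014), but not without naïve-like line 1 (0.0938) or primed line 1 (0.076) or 2 (0.0849). The reference table names the identifier of this row GFRA3, so its identity is uncertain. Of the FPKM of CDC25B and CDC25C, CDC25B made up 35.2 ± 1.72% (SD, n = 3) in pXEN lines, 80.6 ± 0.601% (SD, n = 2) in naïve-like lines and 69.8 ± 0.0318% (SD, n = 2) in primed ESCs. CDC25A, listed without this symbol and so not among the 71, was not called.

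Of the 5 A and B cyclins, 3 were lower in pXEN than in naïve-like cells, or 60% beside 26.2% of all genes. Against primed ESCs 1 was lower (20% beside 24.4%), and 3 were lower in primed than in naïve-like ESCs (60% beside 13.3%). CCNA1, the cyclin A best known from germ cells, had 1, 0 and 2 counts in pXEN lines, 75 and 52 in naïve-like lines and 16 and 14 in primed lines. The ratio of naïve-like to pXEN levels was 57.7 (95% counting interval 19.3 to 284) and that of primed to pXEN levels 12.3 (3.83 to 63.1). CCNA1 was called lower in pXEN cells against each (adjusted p = 0.000217 and 0.00502), in every alternative, and lower in primed than in naïve-like ESCs (−2.21 ± 0.56, adjusted p = 0.0198, lost when any of the 4 ESC lines was left out, at 0.0621 to 0.143). Without pXEN line 3, which holds 2 of the 3 counts, the fitted values moved from −5.69 to −6.53 and from −3.48 to −4.32. CCNA2, the cyclin A of dividing body cells, was at 45.7 to 47.9 FPKM in pXEN lines, 48.5 and 49.2 in naïve-like lines and 52.1 and 58.6 in primed lines and was not called.

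CCNB1, the main mitotic cyclin, was at 87.7, 86.7 and 79.8 FPKM in pXEN lines, 128 and 121 in naïve-like lines and 73.9 and 80.3 in primed lines. The naïve-like lines were above all others, with pXEN cells at −0.56 ± 0.10 (adjusted p = 0.00173) and primed ESCs at −0.71 ± 0.11 (adjusted p = 0.00218) against them, in every alternative. CCNB1 lies on chromosome 16 with CDK7 and PLK2, and the median of the 298 genes tested on that chromosome was −0.73 between pXEN and naïve-like cells, −0.50 between the ESC types and −0.05 between pXEN and primed cells. The part of this shift in those genes was not tested. CCNB3, a cyclin B known from meiosis, was at 6.49, 5.35 and 6.84 FPKM in pXEN lines, 12.6 and 10.3 in naïve-like lines and 6.94 and 6.57 in primed lines. It was lower than in naïve-like ESCs in pXEN cells (−0.89 ± 0.15, adjusted p = 0.00153) and in primed ESCs (−0.78 ± 0.17, adjusted p = 0.00963, lost without naïve-like line 1 at 0.0714 or primed line 1 at 0.0597 or 2 at 0.0776). CCNB2 was at 27.7 to 29.4 FPKM in pXEN cells and 20.6 to 25.3 in ESCs and was not called. The ratio of CCNB1 to CCNA2 FPKM was 1.81 ± 0.0516 (SD, n = 3) in pXEN lines, 2.55 ± 0.135 (SD, n = 2) in naïve-like lines and 1.39 ± 0.0336 (SD, n = 2) in primed ESCs.

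Mitotic kinases and checkpoint genes were called 1 higher and 3 lower of 9 tested in pXEN cells against naïve-like ESCs, 3 higher and 1 lower against primed lines, and 3 were lower in the primed than in the naïve-like lines. The higher and lower shares were 11.1% and 33.3% beside 28.3% and 26.2% of all genes, then 33.3% and 11.1% beside 23.9% and 24.4%, and the last lower share was 33.3% beside 13.3%. PLK2, a polo-like kinase induced by stress and growth signals, was at 5.52, 11.5 and 6.80 FPKM in pXEN lines, 25.4 and 27.7 in naïve-like lines and 19.8 and 19.9 in primed lines. All pXEN lines were below all ESC lines, by −1.74 ± 0.27 against naïve-like (adjusted p = 0.000951) and −1.31 ± 0.27 against primed lines (adjusted p = 0.00481), in every alternative. Of the summed FPKM of PLK1 to PLK4, PLK2 made up 10.6 ± 4.62% (SD, n = 3) in pXEN lines, 25.2 ± 0.927% (SD, n = 2) in naïve-like lines and 24.1 ± 0.497% (SD, n = 2) in primed ESCs. Without pXEN line 2, PLK2 was also lower in primed than in naïve-like ESCs (−0.43, adjusted p = 0.019).

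TTK, the spindle checkpoint kinase, was at 19.4, 22.1 and 19.7 FPKM in pXEN lines, 12.5 and 13.1 in naïve-like lines and 13.0 and 13.3 in primed lines. It was higher in pXEN than in naïve-like (0.67 ± 0.13, adjusted p = 0.00273) and primed ESCs (0.64 ± 0.13, adjusted p = 0.00383), in every alternative. AURKA, which matures the spindle poles, was at 44.6, 39.0 and 41.0 FPKM in pXEN lines, 35.1 and 34.5 in naïve-like lines and 24.0 and 25.6 in primed lines. It was higher in pXEN than in primed cells in every alternative (0.75 ± 0.11, adjusted p = 0.000786), and lower in primed than in naïve-like ESCs (−0.50 ± 0.12, adjusted p = 0.0128, lost when any of the 4 ESC lines was left out, at 0.0578 to 0.112). Against naïve-like ESCs the pXEN value was 0.25 ± 0.10 (adjusted p = 0.0759, and 0.0266 without pXEN line 2). AURKA overlaps CSTF1 on the other strand, which had 537 to 880 counts against 647 to 962 for AURKA.

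BUB1B, the checkpoint partner of CDC20, was at 25.9, 23.1 and 22.4 FPKM in pXEN lines, 35.1 and 28.5 in naïve-like lines and 17.4 and 17.6 in primed lines, and the 3 kinds did not overlap. Primed ESCs were lower than naïve-like ESCs in every alternative (−0.88 ± 0.16, adjusted p = 0.00476). The pXEN cells were lower than naïve-like ESCs (−0.42 ± 0.14, adjusted p = 0.0354) and higher than primed ESCs (0.45 ± 0.15, adjusted p = 0.0353). The former was lost with DESeq2 (0.056), no low-count filter (0.0515) or the replicate block (0.113), and without pXEN line 3 (0.0938). It was also lost without naïve-like line 1 or primed line 1 or 2, at log2 fold changes of −0.28, −0.42 and −0.43. The latter was lost with DESeq2 (0.0506), upper-quartile scaling (0.0673), no filter (0.0541) or the block (0.0629), and without pXEN line 1 (0.102). It was also lost without primed line 1 or 2, at log2 fold changes of 0.44 and 0.45.

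PLK3, a stress-responsive polo-like kinase, was lower in pXEN cells, at 8.16, 5.92 and 6.20 FPKM, than in naïve-like ESCs, at 9.19 and 10.4 (−0.54 ± 0.18, adjusted p = 0.0348), and stood at 8.04 and 9.31 in primed ESCs. That call was lost when any line other than pXEN line 1 was left out (0.0532 to 0.176). The row overlaps TMEM53 on the other strand, at 10 to 54 counts against 184 to 339 for PLK3. PLK1, the main mitotic polo-like kinase, was at 54.3, 43.7 and 44.3 FPKM in pXEN lines, 55.4 and 55.1 in naïve-like lines and 40.5 and 40.6 in primed lines, and was lower in primed than in naïve-like ESCs (−0.46 ± 0.13, adjusted p = 0.0323, lost when any of the 4 ESC lines was left out, at 0.115 to 0.161). Against naïve-like cells, PLK1 was called lower in pXEN cells without pXEN line 1 (0.0472) or with upper-quartile scaling (0.0229). AURKB was at 29.4 to 36.4 FPKM and PLK4, which duplicates centrioles, at 11.8 to 15.0 FPKM over all lines, and neither was called. The row named CDC20 held 7 to 16 counts over 5361 bases, overlaps ELOVL1 and was not called. Whether that row covers the transcripts in use was not tested.

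The proliferation markers gave opposite calls against naïve-like ESCs. MKI67 (Ki-67) was at 36.0, 26.5 and 40.4 FPKM in pXEN lines, 44.0 and 59.4 in naïve-like lines and 34.1 and 30.5 in primed lines, lower than in naïve-like ESCs in pXEN cells (−0.60 ± 0.19, adjusted p = 0.0296) and primed ESCs (−0.69 ± 0.21, adjusted p = 0.0405). The former call was lost without pXEN line 1 (0.0577), naïve-like line 2 (0.235) or primed line 1 (0.0511), and the latter without pXEN line 1 (0.0612), naïve-like line 2 (0.228) or primed line 1 (0.126) or 2 (0.207). TOP2A, the topoisomerase that untangles chromosomes, was at 147, 149 and 160 FPKM in pXEN lines, 110 and 119 in naïve-like lines and 123 and 133 in primed lines. All pXEN lines were above all ESC lines, and pXEN cells were higher than naïve-like ESCs (0.41 ± 0.10, adjusted p = 0.00871), though not without naïve-like line 1 (0.0805) or with upper-quartile scaling (0.0681). Against primed ESCs the TOP2A value was 0.26 ± 0.10 (adjusted p = 0.0568, and 0.0225 without pXEN line 2).

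**Figure D5:**
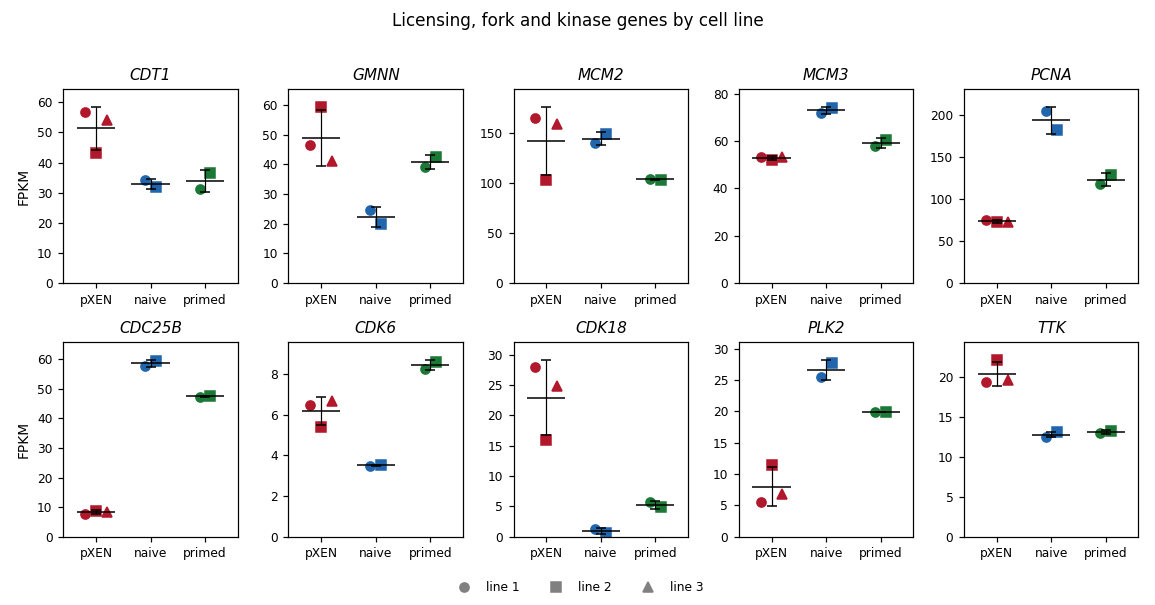
Levels of licensing, fork and kinase genes in FPKM (y axes, from 0) in each line of pXEN cells, naïve-like ESCs and primed ESCs; points are lines, horizontal bars means and whiskers SD. PCNA, CDC25B and PLK2 were lower in all pXEN lines than in all ESC lines, CDT1, CDK18 and TTK were higher, and MCM2 was at 103 FPKM in pXEN line 2 against 165 and 159 in the other pXEN lines.

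Of the 12 other CDKs, most of which act in transcription or have no known role in the cycle, 3 were higher and 2 lower in pXEN than in naïve-like cells, and 5 higher and 2 lower than in primed ESCs. The shares were 25% and 16.7% beside 28.3% and 26.2% of all genes, then 41.7% and 16.7% beside 23.9% and 24.4%. CDK18 (chromosome 9, 72428184 to 72431694), a member of the PCTAIRE kinases, was at 27.9, 16.0 and 24.8 FPKM in pXEN lines, 1.27 and 0.600 in naïve-like lines and 5.67 and 4.79 in primed lines. The 3 kinds were fully apart, with pXEN cells above naïve-like (4.58 ± 0.43, adjusted p = 6.93e-05) and primed ESCs (2.13 ± 0.35, adjusted p = 0.00163) and primed above naïve-like ESCs (2.44 ± 0.45, adjusted p = 0.00496), in every alternative. Without naïve-like line 1 the values against naïve-like ESCs were 5.20 and 3.07.

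CDK8, a kinase of the Mediator complex, was at 8.58, 9.08 and 9.50 FPKM in pXEN lines, 19.9 and 19.5 in naïve-like lines and 11.9 and 11.5 in primed lines. It was lower than in naïve-like ESCs in pXEN cells (−1.13 ± 0.15, adjusted p = 0.000366, in every alternative) and in primed ESCs (−0.77 ± 0.16, adjusted p = 0.00854, lost without naïve-like line 1 at 0.0527 or primed line 1 at 0.06 or 2 at 0.0717). CDK19, its paralog, was at 3.75, 5.78 and 4.25 FPKM in pXEN lines, 2.64 and 3.16 in naïve-like lines and 1.37 and 1.64 in primed lines. The pXEN lines exceeded the primed lines (1.60 ± 0.47, adjusted p = 0.0233). That call was lost with DESeq2 (0.0588) and with the replicate block (0.0731). It was also lost without primed line 1 or 2, at log2 fold changes of 1.47 and 1.73. CDK5, best known from neurons, was at 19.5 to 22.0 FPKM in pXEN cells and 30.1 and 32.8 in naïve-like ESCs (−0.59 ± 0.12, adjusted p = 0.00444, in every alternative).

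CDK14, a partner of cyclin Y, was at 3.12, 10.9 and 3.45 FPKM in pXEN lines, 1.77 and 2.87 in naïve-like lines and 1.25 and 1.80 in primed lines, so that pXEN line 2 stood far above the others. It was higher in pXEN than in primed cells (1.94 ± 0.63, adjusted p = 0.0352), and without pXEN line 2 the value was 1.11 (adjusted p = 0.0434). The call was lost without naïve-like line 1 (0.0507), naïve-like line 2 (0.05) or primed line 1 (0.183) or 2 (0.112). CDK15 was at 0.489 to 0.700 FPKM in pXEN cells and 1.45 and 2.07 in primed ESCs, and was lower in pXEN cells (−1.62 ± 0.46, adjusted p = 0.0201). That call was lost with DESeq2 (0.067), with the replicate block (0.0665) and without pXEN line 1 (0.0576). It was also lost without primed line 1 or 2, at log2 fold changes of −1.85 and −1.34.

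CDK20, which can activate CDK2, was at 5.85 to 6.46 FPKM in pXEN cells and in naïve-like ESCs and at 3.65 and 3.81 in primed ESCs. Primed cells had less of it than pXEN cells (pXEN minus primed 0.74 ± 0.16, adjusted p = 0.00657, and 0.056 without primed line 1) and than naïve-like ESCs (primed minus naïve-like −0.75 ± 0.18, adjusted p = 0.0142, lost when any of the 4 ESC lines was left out, at 0.0502 to 0.093). CDK9, the kinase that releases paused RNA polymerase, was at 100 to 106 FPKM in pXEN lines and 71.2 to 78.7 in ESC lines and was higher in pXEN than in naïve-like (0.40 ± 0.09, adjusted p = 0.00637) and primed ESCs (0.52 ± 0.09, adjusted p = 0.00236), in every alternative. CDK13 was higher in pXEN than in naïve-like cells (0.39 ± 0.10, adjusted p = 0.01), but not without naïve-like line 1 (0.0985) or with upper-quartile scaling (0.0865). CDK10 was lower than in primed cells (−0.35 ± 0.11, adjusted p = 0.0315), but not without pXEN line 1 (0.0925) or without a low-count filter (0.0504). The call was also lost in limma on log2(FPKM + 0.1) (0.063) and log2(FPKM + 1) (0.0655) and with the replicate block (0.0753). Without primed line 1 or 2 it was lost too, at log2 fold changes of −0.41 and −0.29. CDK12 and CDK16 were not called. CDK17, named only by the reference table and so not among the 71, was lower in pXEN than in primed cells (−0.50 ± 0.18, adjusted p = 0.0499), and the omission of any of the 7 lines ended that call (0.0511 to 0.177). ORC3, CDK13, CDK10, CDK9 and CDK19 were named after their values were seen.

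The spread between lines of a kind was small for most of these genes. The highest line was a median of 1.25 times the lowest in pXEN lines, 1.09 times in naïve-like lines and 1.09 times in primed lines, against 1.36, 1.15 and 1.12 times over all genes tested. Genes whose counts averaged under 10 over all lines, or over the lines of the kind, were left out of both medians and of the shares that follow. In pXEN cells, 7 of 65 genes (CCND1, CCND2, CCNE2, CDC20, CDK14, CDKN2A and PLK2) varied by more than 2 times, or 10.8% against 17.2% of all genes.

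Further genes of the pathway were taken from lists of replication, CDK regulation, mitosis and p53 genes, with 100 rows tested. In pXEN cells against naïve-like lines, 18% were higher and 36% lower, against 28.3% and 26.2% of all genes. Against primed ESCs 17% were higher and 25% lower, where all genes gave 23.9% and 24.4%. Between the ESC types 9% were higher and 16% lower in primed cells, with 19% and 13.3% over all genes. The medians were −0.11, −0.06 and −0.10, against 0.00, −0.01 and 0.01 for all genes.

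For replication initiation, the fork and nucleotide supply, 5 of 31 genes were higher and 12 lower in pXEN than in naïve-like cells, and 2 were higher and 8 lower than in primed ESCs. These are 16.1% and 38.7% beside 28.3% and 26.2% of all genes in the former comparison, and 6.45% and 25.8% beside 23.9% and 24.4% in the latter. PRIM2, the large primase subunit, was lower in pXEN cells against both (−1.47 ± 0.11, adjusted p = 2.5e-05, and −1.11 ± 0.11, adjusted p = 0.000157), with 9.84 to 10.5 FPKM against 21.6 to 28.9. CDCA7, a MYC and E2F target, was lower as well (−1.26 ± 0.19, adjusted p = 0.000782, and −0.67 ± 0.19, adjusted p = 0.0198, the latter lost without primed line 1 at 0.0788 or 2 at 0.101). TOPBP1, which helps to load CDC45, was higher against both (0.68 ± 0.13, adjusted p = 0.00255, and 0.92 ± 0.13, adjusted p = 0.000691). It lies on chromosome 13, where the median shift given with MCM2 was 0.46 and 0.40, and the part of that shift in TOPBP1 was not tested.

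TICRR, the partner of TOPBP1, was higher against naïve-like ESCs (0.60 ± 0.16, adjusted p = 0.0144), but not without naïve-like line 1 (0.102) or with upper-quartile scaling (0.0594). RFC2, a clamp loader subunit, was higher against primed ESCs (0.54 ± 0.11, adjusted p = 0.00564, and 0.0623 without primed line 1). Between the ESC types 3 were higher and 3 lower in primed cells, or 9.68% each beside 19% and 13.3% of all genes, among them TYMS, which makes thymidylate (−0.80 ± 0.15, adjusted p = 0.00574, and 0.0554 without primed line 1).

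In the list of CDK regulators and G1 exit, 5 of 22 were higher and 6 lower against naïve-like ESCs, and 6 higher and 5 lower against primed ESCs. These are 22.7% and 27.3% beside 28.3% and 26.2% of all genes, then 27.3% and 22.7% beside 23.9% and 24.4%. WEE1, the kinase that CDC25 phosphatases counter, was at 56.5, 49.4 and 70.4 FPKM in pXEN lines, 18.6 and 16.7 in naïve-like lines and 22.3 and 24.4 in primed lines. It was higher in pXEN than in naïve-like (1.73 ± 0.16, adjusted p = 6.85e-05) and primed ESCs (1.34 ± 0.16, adjusted p = 0.000322). PKMYT1, another kinase of this kind, was lower than in primed lines (−1.11 ± 0.12, adjusted p = 0.000185). SKP2, which targets CDKN1B protein for degradation, was at 103 to 117 FPKM in pXEN lines, 73.8 and 78.0 in naïve-like lines and 35.2 and 37.5 in primed lines, higher in pXEN than primed cells (1.60 ± 0.11, adjusted p = 1.96e-05) and lower in primed than naïve-like ESCs (−1.08 ± 0.11, adjusted p = 0.000352). It lies on chromosome 16, whose median shift is given with CCNB1.

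MYCN was at 57.8 to 80.4 FPKM in pXEN lines, 14 and 15.8 in naïve-like lines and 70.9 and 80.9 in primed lines. It was above naïve-like ESCs in pXEN cells (2.24 ± 0.17, adjusted p = 2.05e-05) and primed ESCs (2.33 ± 0.18, adjusted p = 8.07e-05). MYC was low throughout, at 0.360 to 3.56 FPKM, and was highest in primed ESCs, above naïve-like ESCs by 2.59 ± 0.53 (adjusted p = 0.008, and 0.0604 without naïve-like line 1). It was lower in pXEN than in primed cells (−1.44 ± 0.44, adjusted p = 0.028, lost without primed line 1 at 0.084 or 2 at 0.146). CCNG1, a p53 target, and TFDP1, the dimer partner of E2F factors, were lower in pXEN than in naïve-like cells (−1.56 ± 0.19, adjusted p = 0.000276, and −0.85 ± 0.11, adjusted p = 0.000406). CCNG1 lies on chromosome 16 too, and the part of that shift in CCNG1 and SKP2 was not tested.

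In the mitosis list, 6 of 30 genes were higher and 8 lower against naïve-like ESCs, 7 higher and 5 lower against primed lines, and 1 higher and 3 lower between the ESC types. The shares were 20.0% and 26.7% beside 28.3% and 26.2% of all genes, 23.3% and 16.7% beside 23.9% and 24.4%, and 3.33% and 10% beside 19% and 13.3%. ANLN, the cytokinesis scaffold anillin, was higher in pXEN cells against both ESC types (1.29 ± 0.10, adjusted p = 2.19e-05, and 0.73 ± 0.09, adjusted p = 0.000484), with 26.0 to 27.1 FPKM in pXEN lines and 10.7 to 16.4 in ESC lines. KIF20A, a kinesin of cytokinesis, was higher against primed ESCs (0.81 ± 0.09, adjusted p = 0.000226), and SGO1, which protects cohesin, against naïve-like ESCs (0.98 ± 0.14, adjusted p = 0.000755). Like TOPBP1, SGO1 lies on chromosome 13. UBE2C and CDC26, an enzyme and a subunit that serve the anaphase-promoting complex, were lower against both. For UBE2C the values were −1.44 ± 0.11 (adjusted p = 2.36e-05) and −1.61 ± 0.11 (adjusted p = 2.29e-05). For CDC26 they were −1.45 ± 0.28 (adjusted p = 0.00284) and −1.19 ± 0.28 (adjusted p = 0.00871, and 0.0895 without primed line 2).

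The p53 and checkpoint list, of 17 tested rows with ATM on 2 of them, had 2 higher and 10 lower in pXEN than in naïve-like cells, or 58.8% lower against 26.2% of all genes. Its median log2 fold change was −0.78. Against primed ESCs 2 were higher and 7 lower (41.2% lower against 24.4% of all genes), and between the ESC types 2 were higher and 5 lower (29.4% lower against 13.3%). GADD45G, a stress-induced inhibitor of CDK1, was at 0.130, 1.00 and 0.0584 FPKM in pXEN lines, 30.3 and 32.8 in naïve-like lines and 0.611 and 0.715 in primed lines. It was lower than in naïve-like ESCs in pXEN cells (−6.24 ± 0.61, adjusted p = 8.67e-05, and −8.32 without pXEN line 2) and primed ESCs (−5.57 ± 0.68, adjusted p = 0.000751).

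BBC3, a p53 target in cell death, was lower in pXEN than in naïve-like cells (−2.06 ± 0.34, adjusted p = 0.00145). CHEK1, the replication checkpoint kinase, was higher (0.51 ± 0.12, adjusted p = 0.00808, and 0.064 without naïve-like line 2). SFN, a p53-induced 14-3-3 protein, was at 1.09 to 2.93 FPKM in pXEN lines, 0.379 and 0.131 in naïve-like lines and 3.16 and 3.92 in primed lines (2.80 ± 0.67 between pXEN and naïve-like cells, adjusted p = 0.00814). That call was lost without naïve-like line 2 (2.25, adjusted p = 0.0603), and the value was 3.71 without naïve-like line 1. SESN1, another p53 target, was at 31.0, 91.5 and 25.3 FPKM in pXEN lines and 3.51 and 3.86 in primed lines (3.75 ± 0.61, adjusted p = 0.0015, and 2.94 without pXEN line 2), with 25.1 and 23.6 FPKM in naïve-like lines. In this gene, too, pXEN line 2 was far above the other pXEN lines.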

How the data were processed

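RNA from the 7 cell lines had been depleted of rRNA, made into directional libraries and sequenced by the authors. Per the labels' processing notes, they used HISAT2 2.0.5, featureCounts 1.5.0-p3 and edgeR 3.22.5 with the build Sscrofa10.2. They deposited a count per gene without normalization and FPKM, which scale the count by the gene length of the row and by a total 0.913 to 1.08 times the library's counts. Whether counting used the strand is not given in the sources used here, so reads of overlapping genes on opposite strands may not be told apart. Rows were matched by symbol. Of the 71 genes, 52 had a name in the reference table and 50 the same name, 6 lie on unplaced scaffolds and 13 overlap another listed gene.

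Counts were fitted with edgeR 4.0.16 (R 4.3.3) in 1 model of the 3 groups, with TMM factors, filterByExpr and the quasi-likelihood test, and p-values were adjusted (Benjamini-Hochberg) over 17447 genes. The biological coefficient of variation was 0.223, and the script was tested on simulated data. The SE is the log2 fold change divided by the root of the F statistic. Alternatives were RLE and upper-quartile factors, no filter, a minimum of 10 counts in every library, DESeq2 1.42.0, limma 3.58.1 on log2(FPKM + 0.1) and log2(FPKM + 1), only the 2 groups compared, the replicate number as a block, and each library left out. FPKM served for levels per line. The genes and lists were chosen with earlier results of these data known. Named with values per line were all G1 cyclins, CDK inhibitors, pocket proteins, E2F factors and CDK1, CDK2, CDK4 and CDK6, and, of every other role and comparison, up to 3 called genes with the largest log2 fold change. CDKN1C, E2F2, MCM6 and MCM7 were sought too, but no row was found for them by symbol or reference name. Of each further list and comparison, up to 2 called genes in each direction could be named. No sequence is shown, since none was given for these genes.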

Additional observations from a re-analysis of the deposited data

How the results depend on the processing

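Each result was recomputed under 16 alternatives. Relative log expression factors gave the same counts of called genes as TMM, and the counts stayed within 1.5 times of those reported under both scalings, both filters, DESeq2, limma and the fits of 2 groups. Leaving out each line in turn gave 9 to 17 genes higher and 16 to 23 lower between pXEN and naïve-like cells, 4 to 16 higher and 6 to 16 lower between pXEN and primed cells, and 3 to 11 higher and 6 to 25 lower between primed and naïve-like cells. The lowest counts came without an ESC line, which leaves 1 line in that group, assumed to vary like the others. The replicate number was not taken to pair the lines in the main fit. The differences between lines 1 and 2 of a kind were correlated between kinds over 17447 genes. The values were 0.0173 (pXEN with naïve-like), 0.0332 (pXEN with primed) and −0.00892 (naïve-like with primed). They cannot show whether lines of different kinds share an origin, which was not tested. With the replicate number as a block, 8 genes instead of 13 were higher in pXEN than in primed cells and the other counts stayed within 1.5 times. Of the calls, 8 of 15 higher and 15 of 22 lower held in every alternative between pXEN and naïve-like cells, 4 of 13 and 5 of 16 between pXEN and primed cells, and 3 of 9 and 6 of 21 between the ESC types. Over the named genes, 3211 recomputed values kept their side of the threshold and direction, 283 lost the call, 53 gained it and 39 changed sign, none of the latter past the threshold. For most changes the cause was not tested. Precision is limited by 2 lines in each ESC group and by rows with few counts (CDK4, CDC20, CDKN2B, CCNA1).

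The log2 fold changes that changed sign were as follows. With upper-quartile scaling those between pXEN and naïve-like cells were −0.0228 for CCND3, −0.0685 for CDC25C, −0.0176 for CDK2 and −0.051 for RBL1. Between pXEN and primed cells they were −0.0416 for E2F3, −0.0499 for MCM4 and −0.0012 for ORC3, and between primed and naïve-like cells −0.0612 for CDT1, −0.0051 for E2F5 and −0.0652 for TTK. CDK20 was at 0.00 with relative log expression factors and at 0.0005 with DESeq2 between pXEN and naïve-like cells. CDKN1A between primed and naïve-like cells was at 0.45 and 0.39 in limma with pseudocounts of 0.1 and 1, and at 0.29 with the replicate block. The block also gave −0.0182 for MCM4 and −0.0399 for MKI67 between pXEN and primed cells.

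With lines left out in turn, the log2 fold changes between pXEN and naïve-like cells ranged from −0.18 to 0.79 for CCND1, −0.0191 to 0.33 for CDK2, −0.0687 to 0.0502 for CDK20 and −0.14 to 0.16 for MCM2. Between pXEN and primed cells they ranged from −0.69 to 0.0492 for CCNE2, −0.0508 to 0.29 for CDKN2C, −0.0173 to 0.145 for E2F3, −0.0239 to 0.13 for MCM4, −0.0344 to 0.25 for MKI67, −0.0087 to 0.16 for ORC3 and −0.34 to 0.0052 for RBL2. Between primed and naïve-like cells they ranged from −0.22 to 0.0117 for CDK1, −0.74 to 0.25 for CDK4, −0.997 to 2.1 for CDKN1A, −0.0805 to 0.14 for CDT1 and −0.0107 to 0.0565 for TTK.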
